A study of Mus musculus with 3 samples.

Results

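Cytokine mRNA decay regulators are RNA-binding proteins that set how long the transcripts of inflammatory genes last in an activated macrophage. The 8 genes described here were chosen by name, as proteins known to destabilise or stabilise such transcripts. They were found by gene name among the 36864 names on the array, where they hold 13 probes. RAW264.7 cells, an established mouse macrophage line, were grown alone or for 12 h with *Lactiplantibacillus plantarum* LOC1 or LOC3, both isolated from fresh tea leaves, and all 3 cultures were then challenged with LPS, the bacterial lipopolysaccharide that activates TLR4. The 12 h is the time in the series record, and the study's methods give a longer one. RNA was taken 3 h after LPS. The study asked how each strain changed the response to TLR4 activation. The 3 groups are LPS alone, LOC1 before LPS (LOC1 + LPS) and LOC3 before LPS (LOC3 + LPS), with 1 array each. An array of unchallenged cells was not analysed here, and enters only through the deposited log2 ratios. All 3 arrays carry LPS, so an effect of a strain without LPS cannot be read from them, and no animal or primary cell was used. With 1 array per group there is no replicate, so no test between groups was made and every difference compares 1 array with another.

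In an activated macrophage, transcripts of cytokine genes carry AU-rich stretches or stem-loops in their tails that mark them for rapid removal. Tristetraprolin (*Zfp36*) and its relatives *Zfp36l1* and *Zfp36l2* bind AU-rich elements and recruit the deadenylase complex, while phosphorylation through p38 and MK2 restrains them. Regnase-1 (*Zc3h12a*), its relative *Zc3h12c* and Roquin-1 (*Rc3h1*) act on stem-loops, KSRP (*Khsrp*) promotes decay of AU-rich transcripts, and HuR (*Elavl1*) binds the same kind of element and stabilises the transcript.

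The letters of the *Zfp36* probe itself are shown first because the transcript of this AU-rich element binding protein carries such elements too. Within the probe, on the minus strand at chr7:29161975-29162004 of mm9, the stretch below holds ATTTA pentamers, set in capitals.

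Zfp36 probe: tttATTTAtgacgactttATTTAttgtatt

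The whole 60-base probe holds 3 ATTTA pentamers and 1 TTATTTATT nonamer. Of the 56605 probes on the array, 8.08% hold the pentamer and 0.154% hold the nonamer. The first probes of *Zfp36l1* and *Zc3h12a* and 1 *Khsrp* probe hold 1 pentamer each. A match is a description of the letters and not a binding site.

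The 250 bases before the transcription start are shown for 4 members whose levels the comparisons below turn on, *Zfp36*, *Zfp36l1*, *Zc3h12a* and *Zc3h12c*. The sequences are RefSeq promoters on GRCm38.p6, all on the minus strand, at chr7:28379229-28379478, chr12:80113014-80113263, chr4:125127882-125128131 and chr9:52168407-52168656. For *Zc3h12c* the first of its listed starts is given. Capitals mark matches to the motifs searched on both strands: the TATA box TATAAA, the CCAAT box CCAAT, the GC box GGGCGG, the AP-1 site TGANTCA, the NF-kB site and the CArG box bound by serum response factor.

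Zfp36 promoter: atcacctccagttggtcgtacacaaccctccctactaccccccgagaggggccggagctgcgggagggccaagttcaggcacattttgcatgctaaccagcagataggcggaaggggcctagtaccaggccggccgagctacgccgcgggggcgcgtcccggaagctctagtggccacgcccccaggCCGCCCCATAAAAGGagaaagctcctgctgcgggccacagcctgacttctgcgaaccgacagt
Zfp36l1 promoter: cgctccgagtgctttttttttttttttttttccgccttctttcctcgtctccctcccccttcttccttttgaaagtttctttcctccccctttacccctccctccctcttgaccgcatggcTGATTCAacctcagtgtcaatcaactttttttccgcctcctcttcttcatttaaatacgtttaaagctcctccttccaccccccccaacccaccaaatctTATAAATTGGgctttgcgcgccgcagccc
Zc3h12a promoter: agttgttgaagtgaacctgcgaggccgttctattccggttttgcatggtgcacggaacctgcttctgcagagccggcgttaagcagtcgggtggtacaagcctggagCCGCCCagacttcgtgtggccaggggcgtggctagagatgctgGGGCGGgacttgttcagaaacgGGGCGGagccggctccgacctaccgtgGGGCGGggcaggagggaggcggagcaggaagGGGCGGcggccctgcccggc
Zc3h12c promoter: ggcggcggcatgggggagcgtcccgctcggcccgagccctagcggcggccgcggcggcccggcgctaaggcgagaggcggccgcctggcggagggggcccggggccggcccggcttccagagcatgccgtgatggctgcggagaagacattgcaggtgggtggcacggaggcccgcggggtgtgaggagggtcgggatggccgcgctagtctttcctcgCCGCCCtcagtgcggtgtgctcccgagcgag

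The *Zfp36* window holds a GC box that shares 1 base with a CArG box, a motif found in 1.47% of 32851 promoters of the same length. In the *Zfp36l1* window a TATA box runs into a CCAAT box on the other strand, and an AP-1 site lies 129 bases before the start. Across all promoters 12.4% hold the TATA box, 33.8% the CCAAT box and 6.75% the AP-1 site. The *Zc3h12a* window holds 5 GC boxes and the *Zc3h12c* window 1, where 32.7% of promoters hold at least 1. No window of a member matched the NF-kB site, which 3.90% of promoters hold. Promoters were read for 7 of the 8 members, and *Zfp36l2* is the member with no entry.

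Array-wide facts bear on how a difference is read. The 75th percentile of intensity, to which each array was scaled, was 555 for LPS alone, 513 for LOC1 + LPS and 516 for LOC3 + LPS, and between 47.8% and 51.9% of probes were well above background. Scaled to the median instead, every difference from LPS rises by a constant and the median over all genes moves from 0.0012 to 0.22 with LOC1 and from 0.033 to 0.22 with LOC3. Of the genes past 2-fold with LOC1, 39.3% were higher, against 64.9% under median scaling and 50.5% under quantile normalisation. With LOC3 the share was 48.5%, against 68.7% under median scaling. Spots of 1 probe printed repeatedly on an array gave a technical SD of a log2 difference of 0.06 for bright probes, which covers spot noise only and not culture, labelling or array. Of 10 macrophage genes (*Csf1r*, *Itgam*, *Cd68* and others), 9 were well above background on all arrays. The 10 had a summed intensity, before scaling, of 509218, 409845 and 444965 for LPS, LOC1 + LPS and LOC3 + LPS. Its genes went both ways. In the same order *Lyz2* read 244528, 185159 and 211178 and *Csf1r* 77804.7, 38943.1 and 44636.5. *Cd68* read 47720, 54425 and 53426 and *Adgre1* 11368, 15572 and 13796. Among markers of other cell types, *Cd3e* (T cell) read 396, 416 and 451 on the same arrays, *Col1a1* (fibroblast) 53.9, 40.8 and 38.6, and *Pecam1* (endothelium) 69.0, 46.7 and 42.3, all well above background. Of the epithelial markers *Epcam* was detected with LPS only, at 20.7, and *Krt8* was at background on all arrays, as was the hepatocyte marker *Alb*. The exception among the macrophage genes was *Mrc1*, the mannose receptor, detected on the LPS array only. Its signal was lower by at least 3.40-fold after LOC1 and by at least 2.43-fold after LOC3. Under normexp background correction these differences were −0.49 and −0.29 on the log2 scale. Whether the lower macrophage sum or these other markers play a part in any difference below was not tested, and in bulk RNA fewer cells and less RNA per cell cannot be told apart.

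After LPS challenge alone, 6 of the 8 members were listed past 2-fold against unchallenged cells. *Zfp36*, *Zc3h12a*, *Zc3h12c* and *Rc3h1* were listed as higher and *Zfp36l1* and *Zfp36l2* as lower. Over the 19335 genes well above background with LPS, 13.6% were listed as higher and 9.11% as lower. The deposited log2 ratios set each array against 1 unchallenged array and list only values of 2-fold and more. *Elavl1* and *Khsrp* were not listed, which does not show that they stayed under 2-fold, because probes of 1 gene could differ in being listed: the brightest *Zc3h12c* probe is absent although its neighbour is listed.

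*Zc3h12a*, the endonuclease Regnase-1, had the highest deposited ratio of the members, 5.50 with LPS, or 45.3-fold. It rests on the brighter of 2 probes, as the other was not listed. The unchallenged signal it implies is 44.5, where the lowest detected with LPS was 16.3. *Zfp36* followed at 4.73, or 26.6-fold, and *Zc3h12c* at 4.30, or 19.7-fold. *Rc3h1*, a Roquin that recognises stem-loops through its ROQ domain, lay at 1.25, or 2.38-fold. The relatives of *Zfp36* stood on the other side of 0. *Zfp36l2* was listed at −2.80, a signal 6.98-fold lower than in unchallenged cells, and *Zfp36l1* at −1.45, or 2.73-fold lower. The *Zfp36l1* ratio too rests on the brighter of 2 probes, the other not being listed.

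The pretreated cultures kept these directions. For *Zfp36* the deposited ratio was 4.28 with LOC1 and 4.56 with LOC3, and for *Zc3h12a* 5.35 and 5.48. *Zc3h12c* reached 5.099 and 5.003, and *Rc3h1* 1.45 and 1.55. The ratio of *Zfp36l1* was −2.23 with LOC1 and −1.93 with LOC3, farther from 0 than with LPS alone, while that of *Zfp36l2* was −2.38 and −2.47, nearer to 0. These 3 columns share 1 unchallenged array, so their common direction is not independent evidence. A further probe that the array names *Zc3h12c*, at background on all arrays, was listed with LOC1 only, at 1.92. Its coordinates, chr9:51952488-51976622 of mm9, run in the opposite direction to those of the other *Zc3h12c* probes and its accession matched no RefSeq symbol, so its value is not read as that of the gene.

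**Figure D1:**
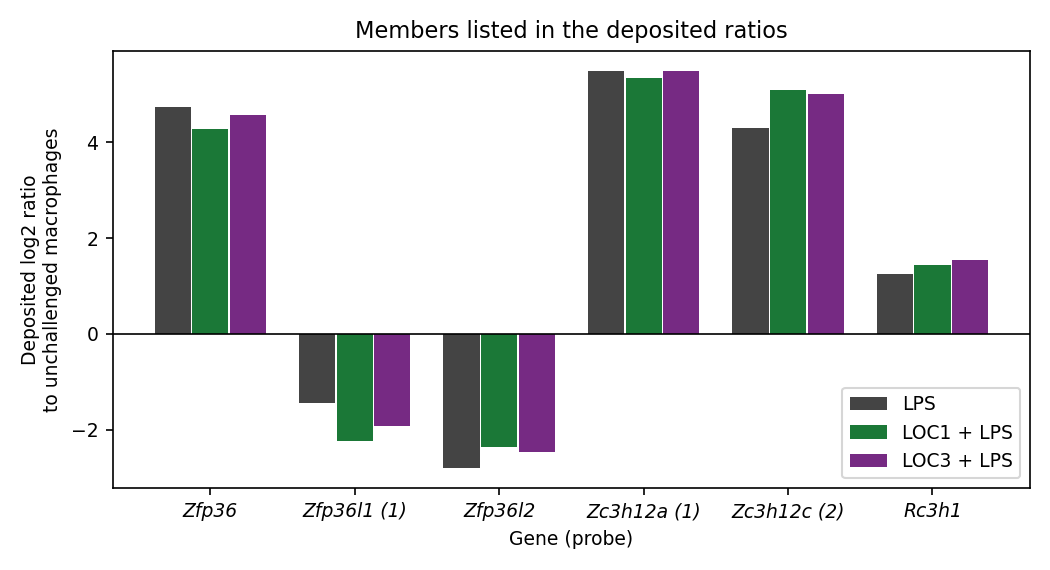
Deposited log2 ratio of each array to unchallenged macrophages (vertical axis) for the 6 listed members, 1 bar per array, numbers in brackets giving the probe. *Zfp36*, *Zc3h12a*, *Zc3h12c* and *Rc3h1* lie above 0 on all arrays, from 1.25 to 5.50, and *Zfp36l1* and *Zfp36l2* below, from −1.45 to −2.80.

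Against LPS alone, no member lay past 2-fold with either strain. The counts were 0 of 8 with LOC1, where 6.35% of 20032 genes passed, and 0 of 8 with LOC3, where 6.22% of 19814 passed, so at this size a count of 0 is near what the background gives. At 1.5-fold, *Zc3h12c* was higher and *Zfp36l1* lower with LOC1, 2 of 8 beside 19.2% of all genes (7.7% higher and 11.5% lower). With LOC3 *Zc3h12c* alone passed, 1 of 8 beside 17.4% (7.86% higher). Both comparisons use the same LPS array, and their values are therefore given side by side without a measure of likeness. The median difference over the members was −0.010 with LOC1 and 0.00090 with LOC3, beside medians of 0.0012 and 0.033 over all genes.

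**Figure D2:**
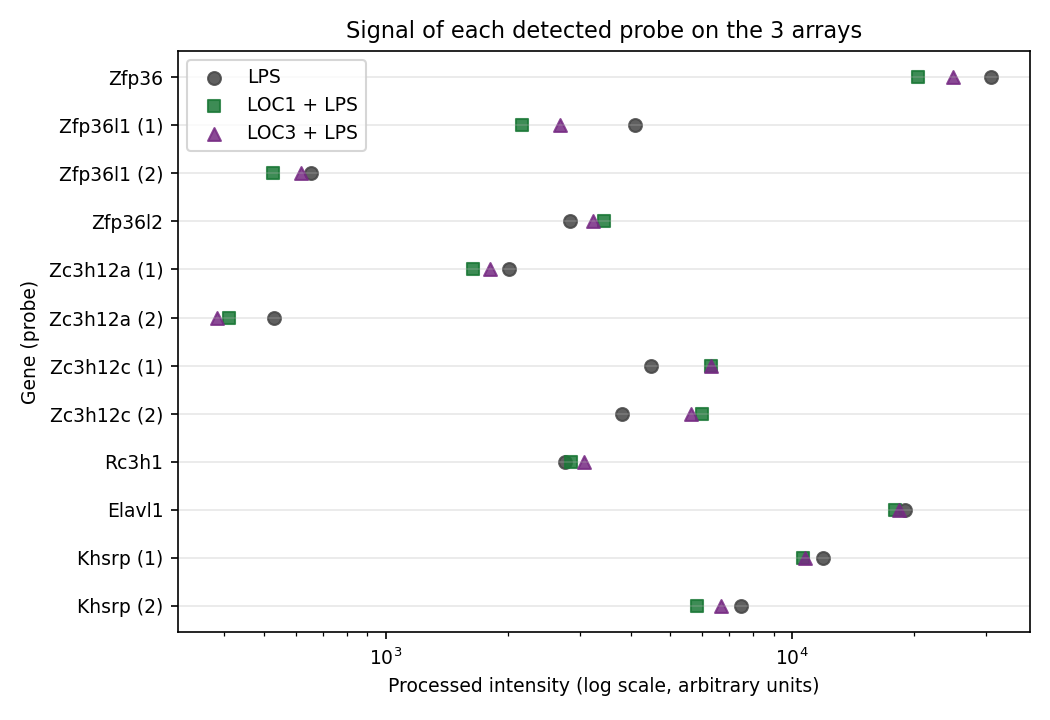
Processed intensity on a log axis for the 12 member probes well above background, 1 point per array. Before scaling, the LPS point lies highest for *Zfp36*, *Zfp36l1*, *Zc3h12a*, *Elavl1* and *Khsrp* and lowest for *Zfp36l2*, *Zc3h12c* and *Rc3h1*.

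In the *Zfp36* family the members lay on different sides of the LPS level. *Zfp36*, the tristetraprolin gene, was read by 1 probe at chr7:29161963-29162022 of mm9, with an intensity of 30868 with LPS, 20394 with LOC1 + LPS and 24911 with LOC3 + LPS. The LPS array was the highest and the LOC1 array the lowest. Relative to the 75th percentile the log2 difference from LPS was −0.49 with LOC1 and −0.21 with LOC3, each wider than 1 technical SD. Among all genes 25.5% and 54.9% differed by more. Under median scaling the differences shrank to −0.27 and −0.02.

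*Zfp36l1*, another AU-rich element binding protein, had a brighter probe at chr12:81208803-81208862 with intensities of 4113, 2158 and 2680 for LPS, LOC1 + LPS and LOC3 + LPS. Its differences from LPS were −0.82 with LOC1 and −0.51 with LOC3, and the former, 1.76-fold lower, was the widest among the members. With LOC1 10.1% of all genes differed by more. The dimmer probe, at chr12:81210866-81210925, read 655, 527 and 619, and differed from LPS by −0.20 and 0.022. Under median scaling its LOC1 difference turned to 0.017, and its LOC3 difference turned to −0.025 when the percentile was taken over detected probes. The probes disagreed by 0.62 with LOC1 and 0.54 with LOC3, where the median gap over 3116 genes with 2 bright probes was 0.10 and 0.11. Only 5.20% and 6.19% of those genes had a wider gap. The mean of both probes gave −0.51 and −0.25, so the size for *Zfp36l1* rests on 1 probe, and its 1.5-fold count is lost with the mean.

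*Zfp36l2* went the other way. Its probe, at chr17:84583415-84583474, read 2836 with LPS, 3447 with LOC1 + LPS and 3235 with LOC3 + LPS, so the LPS array was the lowest. The differences were 0.39 with LOC1 and 0.29 with LOC3, and 33.0% and 41.1% of all genes differed by more. Under median scaling the LOC1 difference was 0.61, past 1.5-fold, but the median over all genes was then 0.22.

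The Regnase genes also differed from each other. *Zc3h12c* had a probe at chr9:51920090-51920128 with intensities of 4492, 6324 and 6313, and one at chr9:51920254-51920313 with 3817, 6008 and 5639, for LPS, LOC1 + LPS and LOC3 + LPS. Both probes were higher on both pretreated arrays than on the LPS array. The differences of the brighter probe were 0.61 with LOC1 and 0.59 with LOC3, and those of the other 0.77 and 0.67. They stayed positive under every scaling tried, but the brighter probe did not always reach 1.5-fold. It gave 0.55 and 0.51 under quantile normalisation, 0.56 and 0.55 with the percentile over detected probes, and 0.60 and 0.583 under normexp correction, where 1.5-fold is 0.585. The other probe stayed past 1.5-fold in each of these, the lowest value being 0.595. The third probe stayed at background throughout, with 5.28, 11.0 and 4.54.

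*Zc3h12a* had its brighter probe at chr4:124795870-124795929, with intensities of 2014, 1637 and 1807 for LPS, LOC1 + LPS and LOC3 + LPS. Its differences were −0.19 with LOC1 and −0.053 with LOC3, the latter within the technical SD, and under median scaling both turned positive, at 0.030 and 0.13. The dimmer probe, at chr4:124803611-124803670, read 530, 412 and 383 and differed by −0.25 and −0.36, and stayed below 0 under median scaling, at −0.034 and −0.18. No direction could therefore be given to *Zc3h12a* between pretreated and LPS cells. Between LPS and unchallenged cells the brighter probe alone was listed, at 45.3-fold.

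*Rc3h1*, read at chr1:162905017-162905076, had intensities of 2759 with LPS, 2858 with LOC1 + LPS and 3078 with LOC3 + LPS. It differed by 0.16 and 0.26, beyond the technical SD but less than 65.2% and 45.6% of all genes.

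*Elavl1*, the stabilising protein HuR, was nearly flat. Its probe at chr8:4288411-4288470 read 18995 with LPS, 17940 with LOC1 + LPS and 18293 with LOC3 + LPS, and the differences of 0.030 and 0.049 lay within the technical SD. Both turned negative under quantile normalisation, at −0.034 and −0.050, and were 0.25 and 0.23 under median scaling, beyond the technical SD. *Khsrp* had its brighter probe at chr17:57160559-57160618, with 11930, 10656 and 10744. It differed by −0.050 and −0.048, within the technical SD, and under median scaling the values were 0.17 and 0.14. The second probe, at chr17:57160973-57161032, read 7473, 5826 and 6687 and differed by −0.25 and −0.057.

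**Figure D3:**
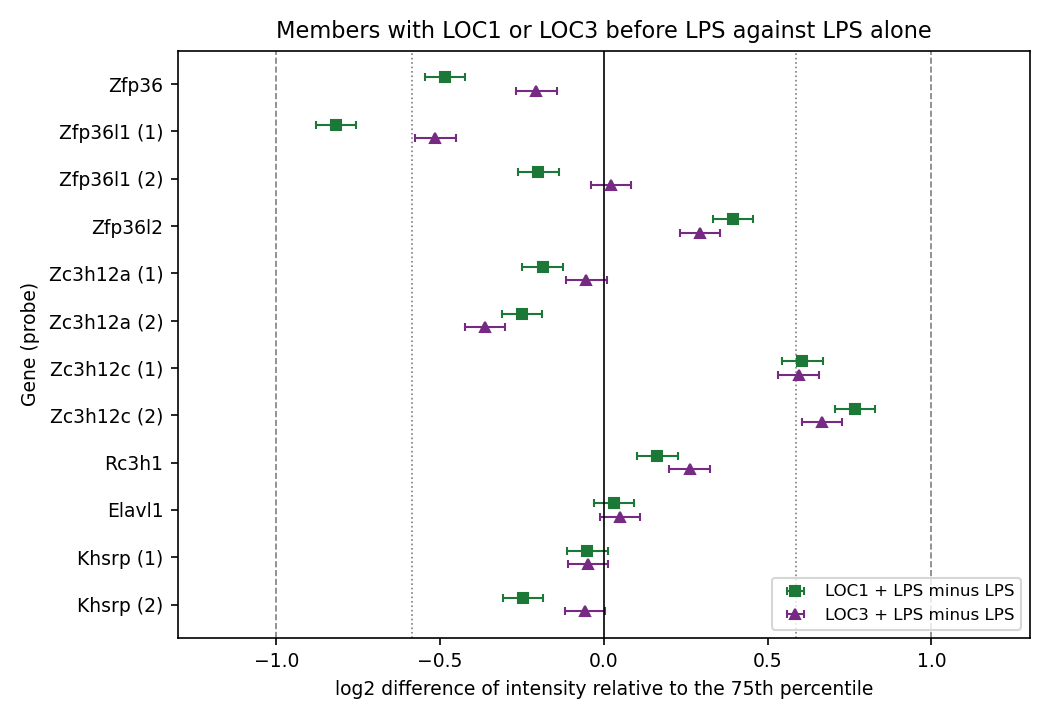
Log2 difference of each detected member probe from LPS after scaling to the 75th percentile (horizontal axis), with bars of 1 technical SD (0.06) from repeated spots, dotted lines at 1.5-fold and dashed lines at 2-fold. The *Zc3h12c* probes lie highest, from 0.59 to 0.77, and the brighter *Zfp36l1* probe lowest, at −0.82 with LOC1.

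Between the strains no member reached 1.5-fold, 0 of 8, where 5.87% of 19399 genes did, and 2.69% passed 2-fold. The widest differences of LOC1 from LOC3 were −0.30 for *Zfp36l1* and −0.28 for *Zfp36*, both lower with LOC1 and both beyond the technical SD. For *Zfp36l1* the second probe gave −0.22, and among all genes 14.5% and 16.0% differed by more than *Zfp36l1* and *Zfp36*. The brighter probe of *Zc3h12c* differed by 0.011 and that of *Khsrp* by −0.0029, within the technical SD, while their second probes differed by 0.10 and −0.19, beyond it.

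The enzymes that carry out decay were compared as lists. Of 20 deadenylation genes (the CCR4-NOT and PAN complexes and their partners), 18 of decapping and 5′ decay and 17 of the exosome, 0 passed 2-fold with either strain, beside 6.35% of all genes with LOC1 and 6.22% with LOC3, a share that comes to about 1 gene per list. These counts use the brightest probe of each gene. With LOC1 other detected probes passed 2-fold, lower for *Dcp1a* (−1.22), *Exosc8* (−1.23) and *Dis3* (−1.12) and higher for *Smg1* (1.07). With LOC3 other probes of *Pabpc1* (−1.04) and *Ddx6* (−1.06) did so, both lower. By brightest probe the values ranged from −0.44 to 0.74 for deadenylation with LOC1, and from −0.25 to 0.44 for the exosome. The list medians were 0.072, −0.016 and −0.00093 with LOC1 and 0.048, 0.035 and 0.038 with LOC3, where the medians over all genes were 0.0012 and 0.033. Against unchallenged cells the deposited ratios with LPS listed 1 of 20 deadenylation genes, *Btg2* at 2.85, which partners the deadenylase. In the decapping list *Dcp2*, the decapping enzyme, was listed at 2.03 and *Xrn1*, the 5′ exonuclease, at up to 1.51. Against LPS the brighter *Dcp2* probe differed by 0.66 with LOC1 and 0.72 with LOC3, and the other by 0.016 and −0.057. *Lsm2* was listed at −1.45 through a dim probe of intensity 34.1 with LPS, while its brighter probes were not listed. None of the 17 exosome genes was listed. These names were picked after their values were seen.

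**Figure D4:**
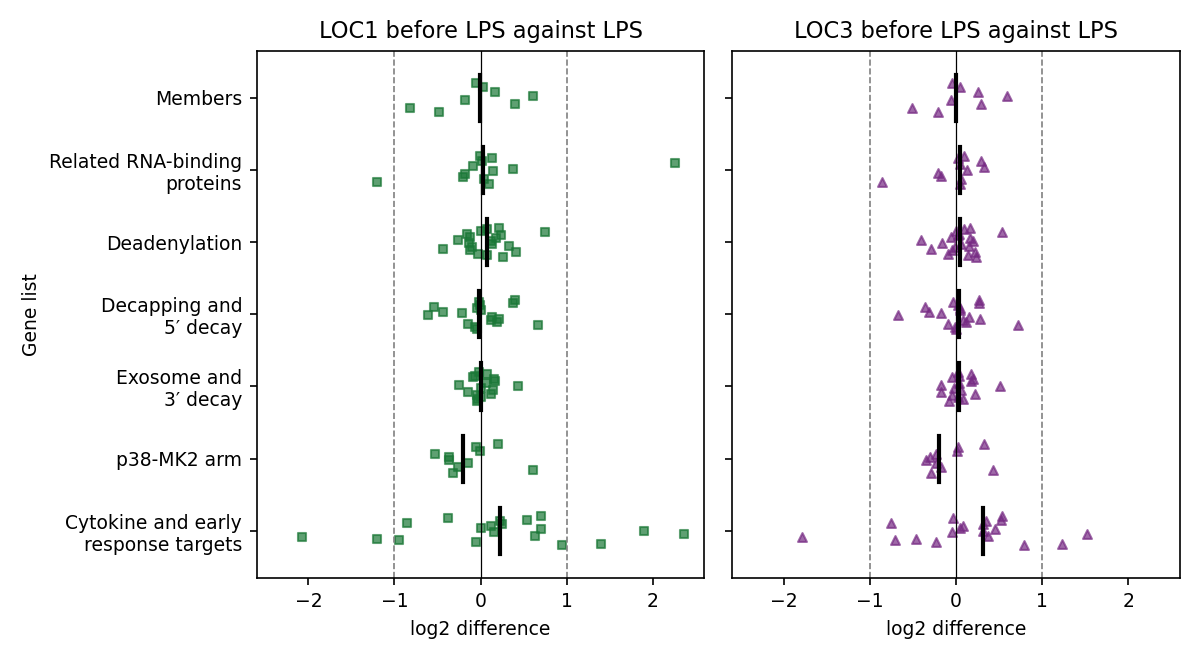
Log2 difference from LPS (horizontal axis) for each gene of the members and 6 related lists. Each gene has 1 point, from its brightest probe, with black lines at the list median and dashed lines at 2-fold. The points of the 3 decay enzyme lists lie inside the 2-fold lines with both strains, while the cytokine targets spread from −2.07 to 2.36 with LOC1.

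The list of the p38 and MK2 arm upstream of the *Zfp36* proteins held 10 genes. By brightest probe 0 passed 2-fold with either strain, where the same 6.35% and 6.22% of all genes did. Another detected probe of *Map2k3* was at −1.20 with LOC1. The list median was −0.21 with LOC1 and −0.20 with LOC3, below the medians of 0.0012 and 0.033 over all genes. Because the list includes *Dusp1*, which opposes p38, its median is not that of restraint on the *Zfp36* proteins. *Dusp1*, the phosphatase that ends p38 signalling, was listed at 3.14 against unchallenged cells, and read 25246 with LPS, 16239 with LOC1 + LPS and 20072 with LOC3 + LPS. The differences of *Dusp1* from LPS were −0.52 with LOC1 and −0.23 with LOC3. *Mapkapk2* and *Mapkapk3*, the kinases MK2 and MK3, were listed at 1.59 and 2.25. The *Mapkapk3* value is that of a probe of intensity 753 with LPS, while its brightest probe, at 4799, was not listed. Of the 10 genes 3 were listed as higher, beside 13.6% of all genes. These genes too were picked after their values were seen.

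Among related RNA-binding proteins 2 of 12 passed 2-fold with LOC1, beside 6.35% of all genes, and 0 of 11 with LOC3, beside 6.22%. The list medians were 0.030 and 0.050. *Zc3h12d*, a further Regnase, was lower, with intensities of 1065 with LPS, 430 with LOC1 + LPS and 549 with LOC3 + LPS. It differed by −1.20 with LOC1 and −0.85 with LOC3, and its second probe by −1.06 and −0.93. Under median scaling the LOC1 value was −0.98, so that call is lost there. *Elavl3*, a neuronal relative of HuR, read 72.2 with LOC1 and was not well above background with LPS (3.56) or LOC3 (4.30), at least 4.78-fold higher than with LPS. Its other detected probe differed by 0.35 with LOC1. The difference of the gene was under 2-fold with normexp correction. With no filter or floor the other probe stood for the gene, at 0.37. A further probe of *Rc3h2* was at −1.07 with LOC1, where its brightest was at 0.044. Against unchallenged cells 2 of 11 genes were listed as higher with LPS, beside 13.6% of all genes. *Arid5a* was listed at 4.65 and 4.79 by its 2 probes, and *Zc3h12d* at 1.98 by its dimmer probe only.

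Transcripts known as decay targets spread over the widest range of the related lists with either strain. Of 19 compared, 3 were higher and 2 lower than with LPS past 2-fold with LOC1, and 2 were higher and 1 lower with LOC3. Over all genes 2.5% were higher and 3.85% lower with LOC1, and 3.02% and 3.2% with LOC3. The median of the list was 0.23 and 0.31. *Il1b* was under 2-fold by its brightest probe, at −0.95 and −0.71, while its lowest detected probe was at −2.59 with LOC1 and −2.55 with LOC3. Against unchallenged cells 17 of 19 were listed as higher with LPS, beside 13.6% of all genes. The list was chosen as cytokine and early response transcripts, so this count depends on that choice. *Csf2*, a growth factor with a strongly AU-rich tail, read 245 with LPS, 1161 with LOC1 + LPS and 653 with LOC3 + LPS, a difference of 2.36 and 1.52. *Il6*, a target of Regnase-1, read 36658, 89676 and 80066, a difference of 1.40 and 1.23. Both were lowest on the LPS array.

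*Il12b*, a subunit of IL-12, read 754, 166 and 203, a difference of −2.07 and −1.79. *Il10*, the anti-inflammatory cytokine, read 2416, 969 and 1628, a difference of −1.21 with LOC1 and −0.47 with LOC3, and under median scaling the LOC1 value was −0.99. *Cxcl1*, a neutrophil chemokine, read 36.0, 124 and 41.9, a difference of 1.90 with LOC1 and 0.32 with LOC3, and the LOC1 value was 0.98 under normexp correction. Targets therefore lay on both sides of the LPS level, and no decay rate was measured on these arrays, so transcription and decay cannot be told apart.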

How the data were processed

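The intensity of each spot was deposited by the authors after Feature Extraction had subtracted the background and detrended it (version 12.0.3.1 in the file headers, mm9 probe positions), with no scaling between arrays. The log2 ratio of each array to unchallenged cells was deposited by the authors after GeneSpring processing, with limma in R 3.2.5 named in their notes. It is blank below 2-fold. Differences between the deposited columns equal those computed here less a constant of −0.033 (LOC1) or −0.037 (LOC3), within 0.01 for 5506 of 5507 and 5532 of 5533 probes, so they are the same measurement.

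Outlier spots were dropped (118 to 135 per array; no spot was saturated), spots of a probe averaged, and log2 intensity taken less the array's 75th percentile. A dim signal was set to at least the lowest that counted as well above background on its array, 14.5 to 19.8. The brightest probe stood for a gene, and a gene was compared when either array detected it. Accessions of 11 of the 13 member probes matched a RefSeq symbol, the same one. The number of arrays sets the precision. The technical SD is that of bright probes printed at least 8 times. For dim probes it was 0.29, from 9 to 12 probes per array.

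All members and all their probes are named, with genes of other lists past 2-fold with either strain. Further genes of those lists were named after their values were seen. Members and lists were chosen with earlier results of these data known. Alternatives were median, quantile and detected-probe scaling, normexp (offset 50), no filter, detection on both arrays, mean of probes, outliers kept, deposited ratios, and 1.5-fold and 3-fold thresholds. Python 3.11.15, numpy 2.4.6, pandas 2.3.3 and matplotlib 3.10.9 were used, and limma 3.58.1 in R 4.3.3. The comparison was tested on simulated data.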

Additional observations from a re-analysis of the deposited data

How the results depend on the processing

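No paired analysis was possible because each group has 1 array and no test was made. The count of members past 2-fold was 0 in all comparisons between arrays under each alternative except the threshold: at 1.5-fold it was 2 with LOC1 and 1 with LOC3, and at 3-fold 0. The *Zc3h12c* difference behind these counts fell under 1.5-fold with both strains under quantile and detected-probe scaling, and with LOC3 under normexp. Against unchallenged cells 6 were listed, and 4 at 3-fold. Over the related lists, 7 genes passed 2-fold with LOC1, 17 at 1.5-fold and 4 at 3-fold. With LOC3 the count was 3, with 9 at 1.5-fold, 1 at 3-fold and 5 with no filter or floor. Between the strains it was 2, with 4 at 1.5-fold, 0 under normexp, and 1 at 3-fold, with detection on both arrays, with the mean of probes, and with the deposited ratios. Of 216 recomputed member values 182 moved by less than the technical SD and 34 by more. Signs that turned belonged to values of *Zc3h12a*, *Elavl1* and *Khsrp* and to the dimmer *Zfp36l1* probe. *Elavl3*, *Cxcl1* and *Mrc1* had low signal and with LOC1 were under 2-fold with normexp. Whether low signal was the cause was not tested.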
